A study of Mus musculus with 2 samples.

Results

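The genes described here drive a cell from G1 into S phase and copy its DNA: 59 genes named by function, out of 22609 listed. They comprise 7 G1 cyclin and kinase genes, 4 inhibitors of those kinases, 3 retinoblastoma family genes and 5 E2F genes. Further along are 11 genes of origin licensing, the licensing inhibitor geminin (Gmnn), 4 genes of origin firing and 12 of the replication fork. Another 6 make or salvage deoxynucleotides, 5 act in de novo nucleotide synthesis, and Uhrf1 guides the copying of DNA methylation to new strands. All 59 were found, and each had at least 1 CPM (counts per 1000000 gene counts, after scaling) in 1 library or both.

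Regulatory CD8+ lymphocytes, a T cell subset able to hold back immune responses, had been sorted from spleens of naive mice aged 3 months. The wild-type animals (WT) gave 1 library. The other library carries the label Tgfbr2-/-Eomes-/- (DKO here), which names the loss of a TGF-beta receptor subunit and of a T-box transcription factor. The labels give neither the number of mice pooled nor how and in which cells the genes were deleted. The comparison asks how expression differs when both genes are lost. Intervals are exact 95% intervals for counting error, so they compare these 2 libraries and not the genotypes. There is no replicate check and no p-value.

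A quiescent lymphocyte holds its replication genes at a low level. D-type cyclins with CDK4 and CDK6 phosphorylate retinoblastoma proteins, which releases E2F factors to transcribe cyclin E and the replication machinery. Licensing then loads the MCM helicase on origins in G1, and in S phase Cdc45 and GINS join it so that polymerases can start. In T cells TGF-beta is known to restrain this entry, in part through kinase inhibitors.

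Both targeted transcripts were lower in the DKO library and still present. Eomes had 10292 counts in WT and 3589 in DKO, and Tgfbr2 had 7825 and 4882. Whole-gene counts do not show whether the deleted part was transcribed. Of 7 identity genes, including Cd8a, Cd8b1, Cd3e and Il2rb, 0 were at least 2-fold higher and 0 lower, beside 11.6% and 3.60% of all genes measured. Sorting selects cells by such surface genes, so this count is no test of identity. Summed levels of each of the 9 marker lists for other spleen cells were higher in DKO. Listed genes need not be confined to the cell type they stand for, so a sum is not the level of a cell type. The largest were neutrophil and monocyte markers, at 1161 and 3143 CPM, NK markers, at 884 and 1024, and plasma cell markers, at 308 and 553. The NK list holds the targeted Eomes, and without it the sums were 415 and 844 CPM. CD4+ and FOXP3+ T cell markers had 99.3 and 238 CPM, dendritic cell markers 190 and 307, and B cell markers 54.7 and 71.8. Erythroid markers had 76.5 and 102, germinal centre B cell markers 68.3 and 92.4, and gamma-delta T cell markers 2.74 and 5.80. The largest level of a single erythroid marker was 54.7 CPM in WT and 57.8 in DKO, so much of that sum came from 1 gene. By the 2-fold rule given below, the DKO level was higher for 6 of 7 measured CD4+ and FOXP3+ markers, 5 of 9 neutrophil and monocyte markers and 5 of 8 dendritic cell markers. The same held for 3 of 7 NK, 3 of 7 erythroid, 2 of 7 plasma cell, 2 of 5 germinal centre, 1 of 7 B cell and 1 of 2 gamma-delta markers, beside 11.6% of all genes measured. In the other direction, 1 NK marker (Eomes), 1 B cell marker (Cr2, 82 and 34 counts) and 1 plasma cell marker (Tnfrsf17, 29 and 10 counts) were lower, beside 3.60% of all genes. The 4 globin genes, Rgs13 and Klra4 were at 0 in both libraries. Ebf1 was at 0 in DKO. The part of other cell types in the values below was not tested. In sorted cells measured in bulk, a larger share of dividing cells and more RNA per dividing cell cannot be told apart.

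Most of the 59 genes leaned towards the DKO library, but by modest amounts. A gene counts as higher or lower here if its ratio reached 2-fold in that direction and the counting interval excluded 1. By that rule 11 of 59 were higher, against 11.6% of all 11735 genes measured, and 1 was lower, against 3.60%. At a 1.5-fold limit 20 were higher and 1 lower, against 17.7% and 8.41% of all genes. Whatever the size, 37 intervals lay wholly above 1, against 35.8% of all genes, 10 wholly below, against 35.7%, and 12 held 1. The median log2 ratio was 0.29, beside 0.00 for all genes, and 46 of 59 ratios lay above 0. Summed over the 59 genes the level was 4421 CPM in WT and 4530 in DKO. Of the 16 members at 100 CPM or more, 8 log2 ratios lay above 0 and 8 below. Just inside the limit was Uhrf1, at 2.01-fold, and just outside it Cdc6, at 1.95-fold.

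**Figure D1:**
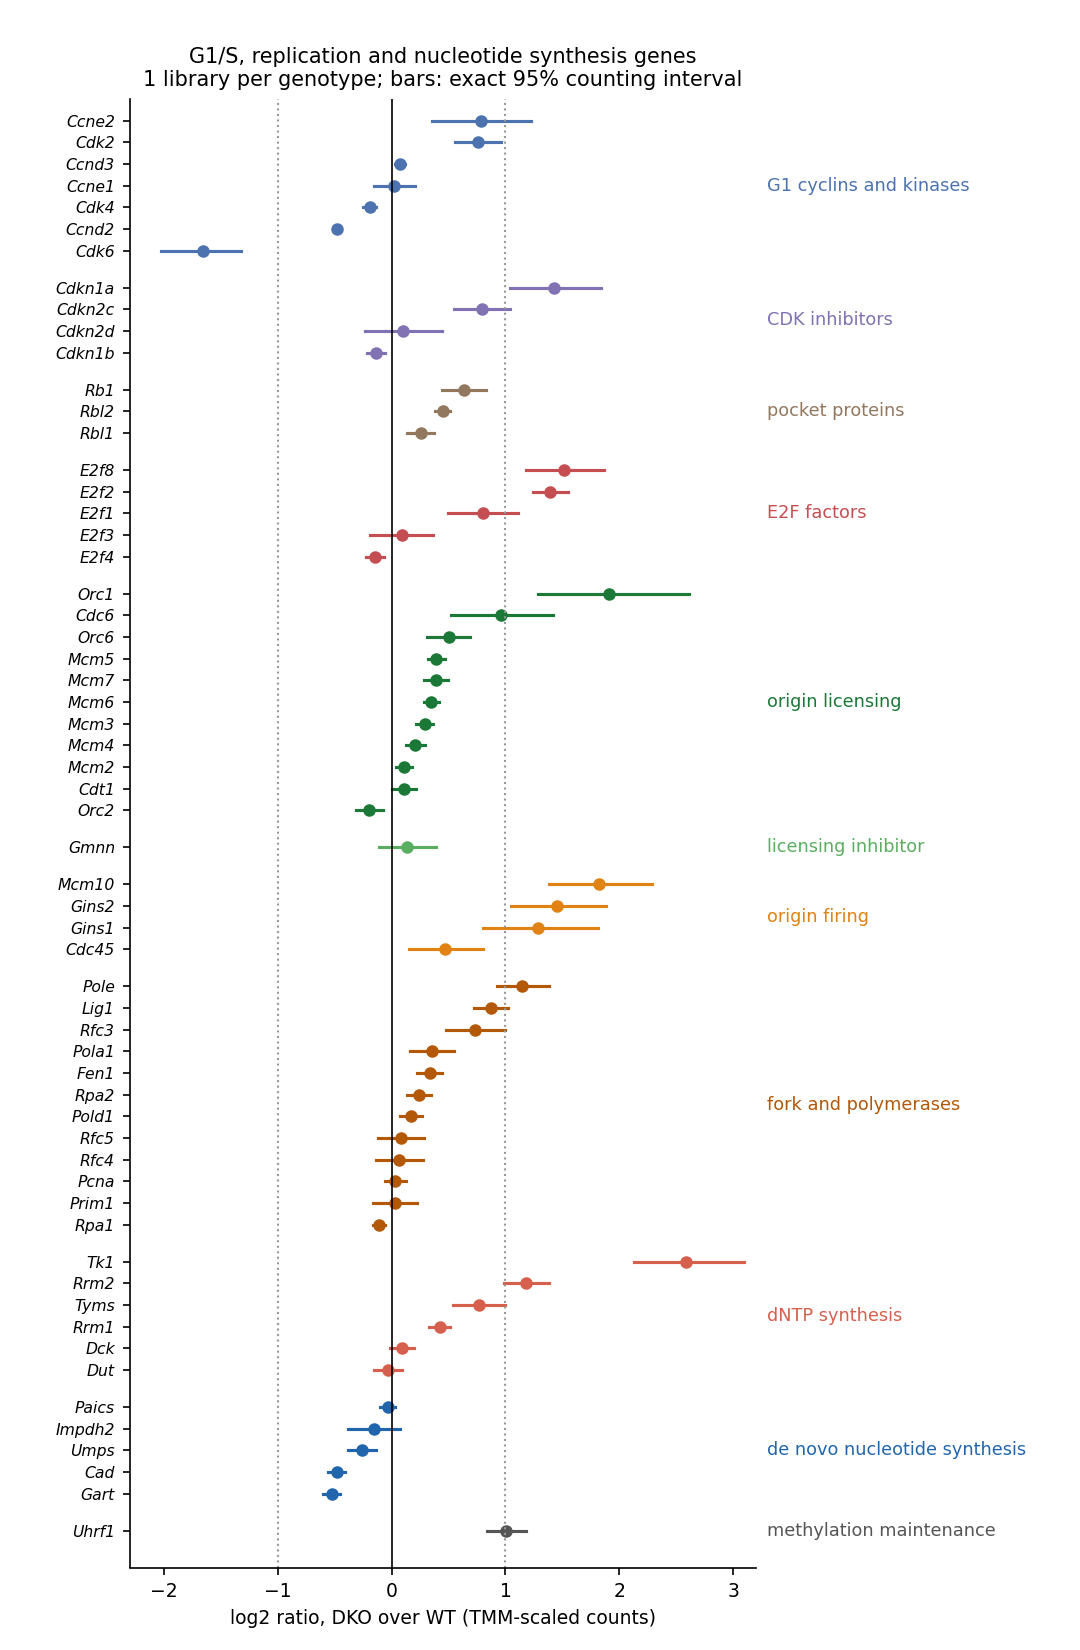
Log2 ratio of DKO over WT for each of the 59 genes, grouped by role; points are 1 library per genotype, bars are exact 95% counting intervals and dotted lines mark 2-fold. Tk1 lies farthest to the right at 2.59, Cdk6 farthest to the left at -1.66, and the 5 de novo nucleotide synthesis genes lie left of 0.

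Ratios were larger among the less abundant members. Spearman's rho between the log2 ratio and the mean level over both libraries was -0.585 across the 59 genes and -0.254 across all genes measured. Both measures come from the same 2 counts, and genes are not independent replicates. Taking abundance as the higher of the 2 levels, 6 of 20 members between 5 and 20 CPM were at least 2-fold higher, against 18.8% of all genes there. Between 20 and 100 CPM it was 4 of 22, against 4.71%. From 100 CPM it was 0 of 16, against 2.17%, and Orc1 was the lone member between 1 and 5 CPM, where 35.0% of all genes were higher. The median log2 ratios of the members in these ranges were 0.77, 0.29 and 0.02 from 5 CPM upwards, beside 0.18, -0.02 and -0.09 for all genes.

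**Figure D2:**
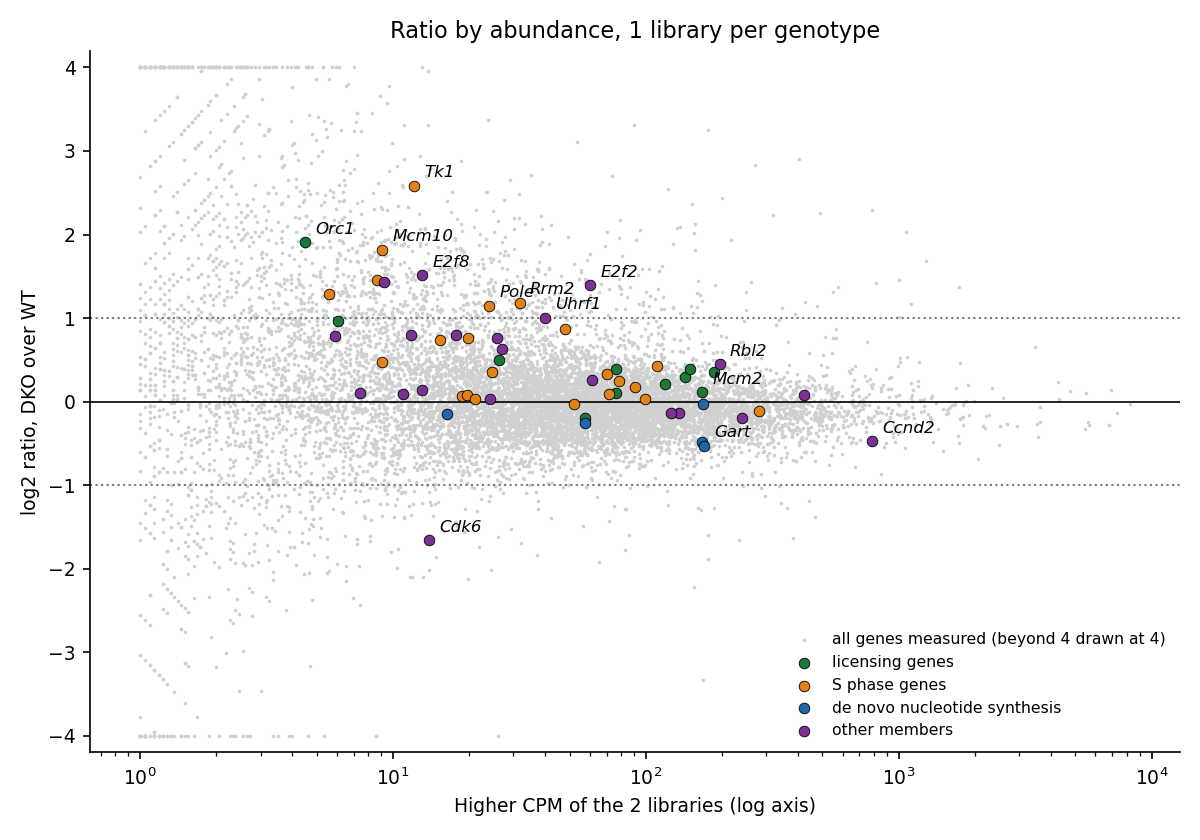
Log2 ratio of DKO over WT against the higher CPM of the 2 libraries on a log axis, with all 11735 genes measured in grey and the 59 members in colour by group; values beyond 4 in size are drawn at 4. Members past 2-fold, such as Tk1, Orc1 and Cdk6, lie below 100 CPM, while those of 100 CPM or more stay between the dotted lines.

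The promoters of these genes were searched for the letters bound by E2F, because E2F controls many of them and the members differ in ratio. RefSeq windows (GRCm38.p6), from 250 bases before to 50 after a gene's start, were found for 50 of the 59. The search took TTTGGCGC, TTTCGCGC, TTTGCCGC and TTTCCCGC on both strands, and matches may overlap. Of the 50 genes 16 held a match, or 32%, against 4.90% of the 8415 measured genes with a window. Some genes have several windows. Counted by window, 16 of 61 member windows held a match, or 26.2%, against 2.26% of all 32851 windows. The match nearest to the start in each of the 16 is shown on the gene's strand with its neighbouring bases, to let the sites be compared. Capitals mark the match.
Cdk2: accaggaactGCGGGAAAgttgtgcagc
Rbl1: agaaggcgatTTTCGCGCgctttgtcgc
E2f2: cggcatatagTTTGGCGCtaa
E2f3: tgaaaagccgGCGGGAAAtctgagtttc
Cdc6: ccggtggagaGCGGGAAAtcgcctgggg
Cdt1: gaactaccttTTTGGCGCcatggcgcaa
Orc1: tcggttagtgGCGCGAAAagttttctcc
Mcm3: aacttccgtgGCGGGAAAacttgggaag
Mcm5: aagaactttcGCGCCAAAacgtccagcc
Mcm6: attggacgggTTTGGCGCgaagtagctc
Mcm7: ggtgacgacgTTTCGCGCcaatttcggt
Rfc3: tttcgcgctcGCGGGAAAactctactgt
Pola1: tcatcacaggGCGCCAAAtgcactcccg
Pold1: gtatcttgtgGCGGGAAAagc
Lig1: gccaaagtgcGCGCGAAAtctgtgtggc
Uhrf1: ccgagtcgggTTTCGCGCgcccaggcgt

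Among roles with more than 1 gene, matches were most frequent in licensing, where 7 of the 10 genes with a window held one, compared with 4 of 19 S phase genes and 0 of 5 de novo nucleotide synthesis genes. Mcm6 held 3 matches, the most of any member, and Mcm3, Mcm5, Mcm7 and Rfc3 held 2. Of the 22 matches, 13 began within 50 bases of the start. Every one of the 16 genes with a match had a log2 ratio above 0, from 0.09 for E2f3 to 1.91 for Orc1, with a median of 0.39. Above 0 were also 46 of all 59 members and 5886 of the 11735 genes measured. The 34 members without one ranged from -1.66 to 2.59, with a median of 0.09. Since matches were unevenly spread over the roles, match and role cannot be told apart here. Counted at 2-fold the sets were nearer, at 3 of 16 and 5 of 34. Among all measured genes a match went with no higher ratio: the median was -0.02 in the 412 genes with one, of which 7.77% were at least 2-fold higher, and 0.00 in the 8003 without, of which 11.4% were.

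The windows of Orc1 and Tk1 are given whole, as the licensing gene and the S phase gene with the highest ratios. The Orc1 window, chr4:108579204-108579503 on the plus strand, has its match 27 bases before the start. The Tk1 window, chr11:117825965-117826264 on the minus strand, has none, which says only that these letters are not in this window.
Orc1: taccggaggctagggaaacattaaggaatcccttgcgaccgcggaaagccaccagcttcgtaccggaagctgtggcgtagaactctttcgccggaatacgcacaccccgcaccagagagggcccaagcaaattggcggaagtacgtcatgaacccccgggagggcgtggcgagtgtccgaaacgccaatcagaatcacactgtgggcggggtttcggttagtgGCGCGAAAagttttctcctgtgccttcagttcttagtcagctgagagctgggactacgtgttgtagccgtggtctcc
Tk1: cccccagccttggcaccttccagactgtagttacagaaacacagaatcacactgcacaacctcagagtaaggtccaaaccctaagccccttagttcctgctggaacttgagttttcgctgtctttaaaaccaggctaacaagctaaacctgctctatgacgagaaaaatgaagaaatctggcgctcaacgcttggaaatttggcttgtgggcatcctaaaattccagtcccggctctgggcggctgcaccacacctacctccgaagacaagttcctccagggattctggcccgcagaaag

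Of the 7 genes of G1 cyclins and their kinases, which start the program, 0 were at least 2-fold higher and 1 lower. Of all genes measured 11.6% were higher and 3.60% lower. The lower gene was Cdk6. Cdk6 had 306 counts in WT and 88 in DKO, or 13.9 and 4.40 CPM, 3.16-fold lower (2.49 to 4.06). Its paralog Cdk4, the other partner of D cyclins, had 239 and 209.6 CPM so it was 1.14-fold lower (1.10 to 1.19). Scaling the libraries on 24 T cell receptor genes instead, called the T cell receptor scale below, turned that direction. Per kilobase of exon, the Cdk4 level was 96.4 times that of Cdk6 in WT and 267 times in DKO.

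Ccnd2, the member with the highest CPM, was lower as well. Its level was 783 CPM in WT and 563 in DKO, 1.39-fold lower (1.36 to 1.42), while Ccnd3 had 402 and 423 CPM, 1.05-fold higher (1.02 to 1.09). Set against Ccnd2, the Ccnd3 ratio was 1.46 times as large (1.41 to 1.52), a comparison that no scaling alters. Ccnd1, not a member, went further the same way, from 21.0 to 39.4 CPM, 1.87-fold higher (1.67 to 2.11). The D cyclin genes thus differed in direction.

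The cyclin E genes, whose products activate CDK2 at the G1/S boundary, also parted. Ccne1 had 23.8 and 24.3 CPM, a ratio of 1.02 (0.897 to 1.15), and Ccne2 had 75 and 118 counts, 1.72-fold higher (1.28 to 2.34). Cdk2 itself had 335 and 517 counts, 1.69-fold higher (1.47 to 1.95). Per kilobase, Ccne1 was 11.2 times the level of Ccne2 in WT and 6.58 times in DKO, so cyclin E1 transcripts predominated in both.

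Of the 4 kinase inhibitor genes, 1 was at least 2-fold higher and 0 lower, beside 11.6% and 3.60% of all genes measured. That gene was Cdkn1a, which encodes the p53 target p21. It had 75 and 185 counts, 2.70-fold higher (2.06 to 3.59). Cdkn1b, encoding the quiescence inhibitor p27, was far more abundant, at 135 and 123 CPM, and 1.10-fold lower (1.04 to 1.16), or slightly higher on the T cell receptor scale. Of the INK4 inhibitors of CDK4 and CDK6, Cdkn2c had 224 and 354 counts, 1.73-fold higher (1.46 to 2.06). Cdkn2d had 151 and 148, a ratio of 1.08 whose interval (0.851 to 1.36) held 1.

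All 3 pocket protein genes, which hold E2F in check, were somewhat higher. Rb1 went from 17.4 to 27.0 CPM, 1.55-fold (1.36 to 1.77), and Rbl2, the p130 of resting cells, from 144 to 196, 1.36-fold (1.30 to 1.43). Rbl1, the p107 of cycling cells, went from 51.5 to 61.5 CPM, 1.19-fold (1.10 to 1.30). None of the 3 reached 2-fold, beside 11.6% of all genes measured that were at least 2-fold higher. All 3 intervals lay wholly above 1, beside 35.8% of all genes.

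The E2F genes spanned the range. The activator E2f2 had 502 and 1204 counts, or 22.9 and 60.2 CPM, 2.63-fold higher (2.37 to 2.93), and the atypical repressor E2f8, which turns E2F targets off late in S phase, had 100 and 261 counts, 2.85-fold higher (2.27 to 3.64). E2f1, the other activator, had 148 and 235 counts, 1.74-fold higher (1.41 to 2.15). E2f3, an activator too, had 227 and 220, a ratio of 1.06 (0.879 to 1.29). E2f4, which acts as a repressor in resting cells, had 126 and 114 CPM, 1.10-fold lower (1.04 to 1.17), or slightly higher on the T cell receptor scale. The E2f2 ratio was 2.47 times that of E2f3 (1.99 to 3.08) and 1.51 times that of E2f1 (1.19 to 1.91), so the activators differed among themselves beyond counting error.

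In the licensing group Orc1, Cdc6 and Orc6 had larger ratios than any MCM helicase gene, and Orc2 was the one with a log2 ratio below 0. Over the 11 genes the median log2 ratio was 0.35. By the 2-fold rule 1 gene was higher and 0 lower, beside 11.6% and 3.60% of all genes measured. Orc1, the large subunit of the origin recognition complex, had 26 and 90 counts, or 1.19 and 4.50 CPM, 3.75-fold higher (2.43 to 6.12). Cdc6, which brings MCM to the complex, had 68 and 121 counts, 1.95-fold higher (1.44 to 2.67). Orc6 had 409 and 528 counts, 1.42-fold higher (1.24 to 1.62). Orc2, another subunit, had 57.4 and 50.2 CPM, 1.14-fold lower (1.05 to 1.24), a direction lost on the T cell receptor scale. The Orc1 ratio was 4.34 times that of Orc2 (2.76 to 7.06), and per kilobase Orc2 exceeded Orc1 41.0 times in WT and 9.43 times in DKO.

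Cdt1, another loader, had 70.6 and 76.0 CPM, 1.08-fold higher (1.00 to 1.16). Geminin, its inhibitor, encoded by Gmnn, had 261 and 262 counts, a ratio of 1.10 (0.924 to 1.31). Their ratios did not part beyond counting error, at 1.02 for Gmnn relative to Cdt1 (0.846 to 1.24).

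All 6 MCM2 to MCM7 subunit genes were higher within a narrow band, and none by 1.5-fold. All 6 intervals lay wholly above 1, beside 35.8% of all genes measured, and 17.7% of all genes were at least 1.5-fold higher. Their log2 ratios ran from 0.11 to 0.39, and their summed level went from 693 to 842 CPM. The lowest was Mcm2, from 155 to 168 CPM, 1.08-fold (1.03 to 1.13). Mcm4 went from 104 to 119.7 CPM, 1.16-fold, Mcm3 from 117 to 143, 1.22-fold, and Mcm6 from 146 to 186, 1.27-fold. Mcm5, from 114 to 149 CPM, and Mcm7, from 58.3 to 76.4, were both 1.31-fold higher. The Mcm5 ratio was 1.22 times that of Mcm2 (1.13 to 1.31), so even within the ring the genes differed beyond counting error. Per kilobase the subunits lay between 19.7 for Mcm7 and 46.0 for Mcm2 in WT, and between 25.8 and 49.7 for the same genes in DKO.

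Origin firing genes, which turn the loaded helicase into a moving one, had the highest median of any role with more than 1 gene, 1.37, with 3 of 4 at least 2-fold higher and 0 lower. Mcm10 had 56 and 181 counts, 3.52-fold higher (2.61 to 4.88). Gins1 had 50 and 112, 2.44-fold higher (1.75 to 3.50), and Gins2 had 69 and 173, 2.74-fold higher (2.07 to 3.69). Cdc45 had 143 and 181 and was 1.39-fold higher (1.11 to 1.74). All 4 were below 10 CPM in both libraries. By the higher of the 2 levels they lie between 5 and 20 CPM. In that range 18.8% of all genes measured were at least 2-fold higher, and the median log2 ratio was 0.18. The Mcm10 ratio was 2.55 times that of Cdc45 (1.74 to 3.78) and 3.28 times that of Mcm2 (2.41 to 4.53). In the GRCm38 annotation 2758 bases of Gins2 exons overlap Gse1 exons on the other strand, so its count is uncertain.

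At the fork the median log2 ratio was 0.21. Here 1 of 12 genes was at least 2-fold higher and 0 lower, beside 11.6% and 3.60% of all genes measured. That gene was Pole, the catalytic subunit of the leading-strand polymerase, with 238 and 481 counts, 2.22-fold higher (1.89 to 2.60). Pold1, its lagging-strand counterpart, went from 80.7 to 90.8 CPM, 1.12-fold (1.05 to 1.20), so the Pole ratio was 1.97 times as large (1.66 to 2.34). Of the polymerase alpha and primase genes that lay down primers, Pola1 was 1.28-fold higher (1.12 to 1.46) and Prim1 had a ratio of 1.02 (0.891 to 1.17). Lig1, which seals Okazaki fragments, had 572 and 955 counts, 1.83-fold higher (1.65 to 2.04), and Fen1, which trims their flaps, 1.26-fold (1.17 to 1.36), though 2038 bases of Fen1 exons overlap Tmem258 and Gm10143 on the other strand.

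The sliding clamp gene Pcna, often used as a marker of proliferation, was flat at 97.3 and 99.7 CPM, a ratio of 1.02 (0.963 to 1.09). Of the clamp loader genes Rfc3 had 203 and 308 counts, 1.66-fold higher (1.39 to 2.00), while Rfc4 and Rfc5 had ratios of 1.05 (0.908 to 1.21) and 1.06 (0.920 to 1.22). The Rfc3 ratio was 1.59 times that of Rfc4 (1.26 to 2.00). The single-strand binding genes were near level, with Rpa1 at 280.2 and 259 CPM, 1.08-fold lower (1.04 to 1.12; higher on the T cell receptor scale), and Rpa2 at 66.4 and 78.5, 1.18-fold higher (1.10 to 1.27). Reads that also align to a named pseudogene, which Pcna, Tyms, Impdh2 and Ccnd3 have, may have been lost to the non-unique row.

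Deoxynucleotide synthesis held the highest ratio of all 59 genes. Tk1, the thymidine salvage kinase of S phase, had 44 and 243 counts, or 2.01 and 12.2 CPM, 6.004-fold higher (4.38 to 8.56). Rrm2, the small subunit of ribonucleotide reductase that limits its activity to S phase, had 306 and 634 counts, 2.27-fold higher (1.98 to 2.61). Its large subunit Rrm1, present through the cycle, had 82.5 and 111 CPM, 1.34-fold higher (1.26 to 1.43). The Rrm2 ratio was 1.70 times that of Rrm1 (1.46 to 1.98), and per kilobase the excess of Rrm1 over Rrm2 went from 3.24 to 1.91.

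Tyms, which makes thymidylate, had 256 and 397 counts, 1.70-fold higher (1.45 to 2.00). Dck, the deoxycytidine kinase that lymphocytes express at all times, had 66.7 and 71.3 CPM, a ratio of 1.07 (0.992 to 1.15). Dut, which removes dUTP, went from 52.0 to 50.9 CPM; its log2 ratio of -0.03 was positive on the T cell receptor scale and when library totals set the scale. The Tk1 ratio was 5.67 times that of Dck (4.06 to 8.08), although both are salvage kinases. Over the 6 genes the median was 0.59, with 2 at least 2-fold higher and 0 lower, beside 11.6% and 3.60% of all genes measured.

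Compared as groups, licensing and S phase genes did not separate. S phase genes here are the 22 of origin firing, fork and deoxynucleotide synthesis. Their median log2 ratio was 0.39, beside 0.35 for the 11 licensing genes, a difference of -0.04 for licensing minus S phase. Of the 22, 21 lay within the licensing range of -0.19 to 1.91, and 1, Tk1, lay above it. In 129 of 242 pairs (53.3%) the S phase gene had the higher ratio. Summed levels went from 844 to 1005 CPM for licensing and from 946 to 1099 for S phase, 1.19-fold and 1.16-fold. At least 2-fold higher were 6 of 22 S phase genes and 1 of 11 licensing genes, beside 11.6% of all genes measured. The groups differ in abundance. Between 5 and 20 CPM, where 18.8% of all genes were higher, lay 9 S phase genes, 4 of them higher, with a median of 0.77. In that range was 1 licensing gene, Cdc6, at 0.96, and Orc1 lay lower still. At 20 to 100 CPM the medians were 0.25 for 4 licensing genes and 0.24 for 11 S phase genes, and at 100 CPM or more 0.29 for 5 and 0.15 for 2.

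**Figure D3:**
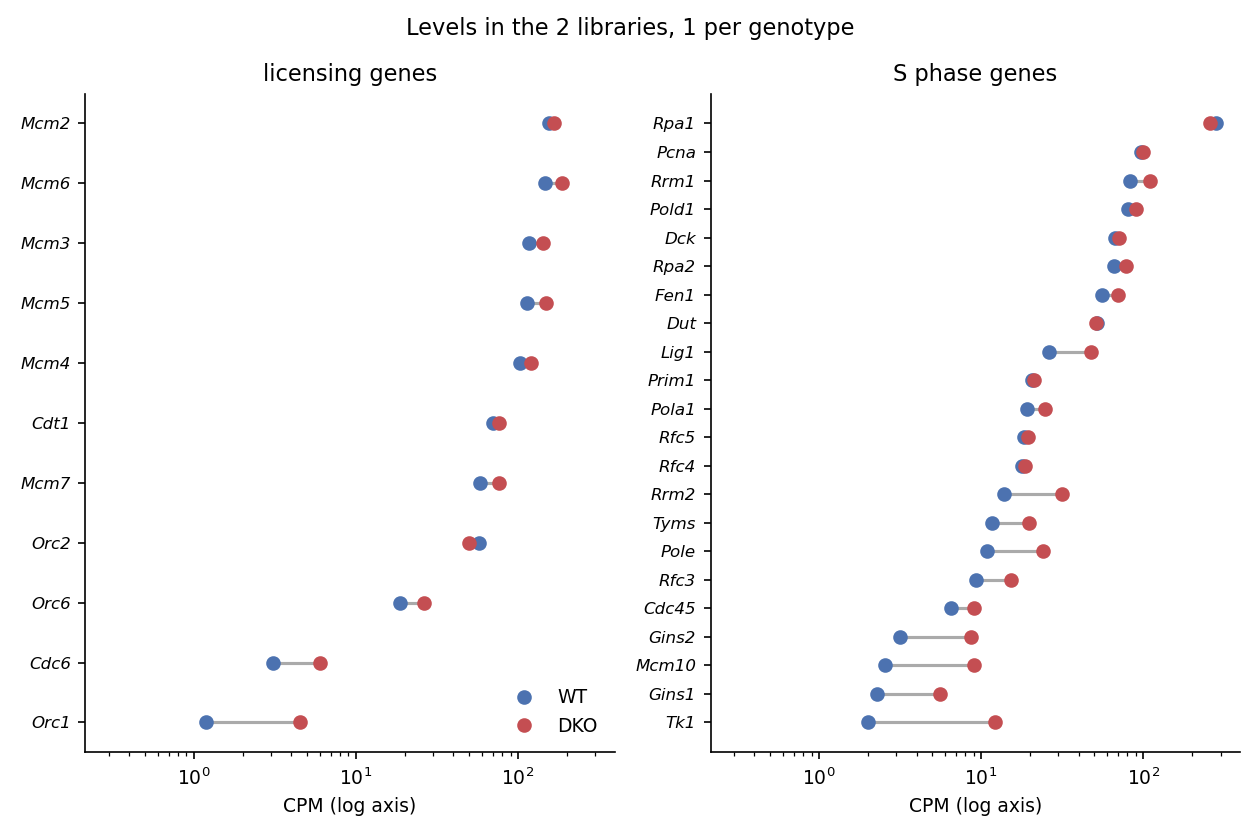
CPM on a log axis in the WT (blue) and DKO (red) library for the 11 licensing genes and the 22 S phase genes, ordered by WT level, with a grey line joining the 2 values of a gene. In both panels the genes at the foot, such as Orc1 (1.19 to 4.50 CPM) and Tk1 (2.01 to 12.2 CPM), have the long lines.

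The 5 de novo nucleotide synthesis genes were the one role in which every log2 ratio lay below 0, with a median of -0.26. Below 0 were also 5849 of the 11735 genes measured. By the 2-fold rule 0 of the 5 were higher and 0 lower, beside 11.6% and 3.60% of all genes. Gart, Cad and Paics lie at 100 CPM or more, where all genes had a median of -0.09. Gart, a trifunctional enzyme of purine synthesis, had 169.9 and 118 CPM, 1.44-fold lower (1.37 to 1.52). Cad, which performs the first steps of pyrimidine synthesis, had 167 and 120.0 CPM, 1.39-fold lower (1.32 to 1.47), and Umps, which completes UMP, was 1.20-fold lower (1.10 to 1.30). Impdh2, of GTP synthesis, had 359 and 294 counts, with an interval that held 1 (1.11-fold lower, 0.951 to 1.30). Paics, of purine synthesis, had 168 and 164 CPM, 1.02-fold lower with an interval that held 1 (0.976 to 1.07). Impdh2 and Paics were positive on the T cell receptor scale, and Paics also with total counts.

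The rest of the pathway leaned the same way. Of 28 other nucleotide synthesis genes 16 intervals lay below 1 and 5 above, against 35.7% and 35.8% of all genes measured. Their median was -0.18, and 1 gene was at least 2-fold lower and 0 higher, against 3.60% and 11.6%. The list's median WT level was 81.3 CPM. All genes between 20 and 100 CPM had a median of -0.02, and those at 100 CPM or more -0.09. The T cell receptor scale moved the median of all genes from 0.00 up to 0.21, a larger shift than this list's distance from 0. A scaling moves every ratio alike, so the list's place below the median of all genes does not depend on it. The gene past 2-fold was Dctd, a dCMP deaminase, with 321 and 125 counts, 2.33-fold lower (1.90 to 2.90). Ppat, which commits to purine synthesis, was 1.53-fold lower (1.42 to 1.65), and Shmt1, of one-carbon supply, 1.56-fold lower (1.33 to 1.84). Samhd1, which degrades deoxynucleotides, went the other way, from 456 to 747 CPM, 1.64-fold higher (1.60 to 1.68). Taking the 6 enzyme genes from Ppat to IMP together (Ppat, Gart, Pfas, Paics, Adsl and Atic), a set put together after values were seen, all 6 log2 ratios lay between -0.61 and -0.03, and their sum went from 750.4 to 599 CPM. On the T cell receptor scale Paics was positive. Myc, known to activate such genes and picked out after its value was seen, had 155 and 98.8 CPM, 1.56-fold lower (1.48 to 1.65). Whether Myc has a part in the ratios of these genes was not tested.

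Uhrf1, which guides maintenance methylation to newly copied DNA, had 435 and 796 counts (19.8 and 39.8 CPM), 2.01-fold higher (1.78 to 2.26).

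Other genes of G1/S and replication outside the 59 also varied. Beside the counts that follow, 11.6% of all genes measured were at least 2-fold higher and 3.60% lower. Of 17 measured G1/S regulators 4 were at least 2-fold higher and 0 lower, with a median of 0.51. Among them Ccna2, the S phase cyclin, had 276 and 983 counts, 3.90-fold higher (3.42 to 4.48), and Mybl2 was 2.40-fold higher (1.77 to 3.32). Of 15 licensing and firing genes 1 was higher, Recql4 at 2.04-fold (1.51 to 2.79), with a median of 0.00. The CDC7 kinase gene was 1.58-fold higher (1.29 to 1.95), and Donson was 1.40-fold lower (1.26 to 1.55). Of 25 fork genes 2 were higher, with a median of -0.08. These were Clspn, a checkpoint mediator, at 3.57-fold (2.85 to 4.53), and the nuclease gene Dna2 at 2.62-fold (2.11 to 3.28). Of the 25 intervals, 9 lay wholly above 1 and 8 wholly below. In these 3 lists 0 genes were at least 2-fold lower.

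Mitotic genes, expressed later in the cycle, lay higher than each role above that has more than 1 gene. In this list of 20, the 2-fold rule called 18 higher and 0 lower, against 11.6% and 3.60% of all genes measured. The median log2 ratio was 1.60 and the lowest value 0.71, and the summed level went from 186 to 586 CPM. Mki67 had 751 and 2057 counts, and Birc5, an inhibitor of apoptosis that acts at the spindle, 121 and 443, 4.005-fold higher (3.28 to 4.95). Only Mcm10, Orc1 and Tk1 of the 59 exceeded the mitotic median. The mitotic list was chosen with results of these data known, so its height is a description.

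**Figure D4:**
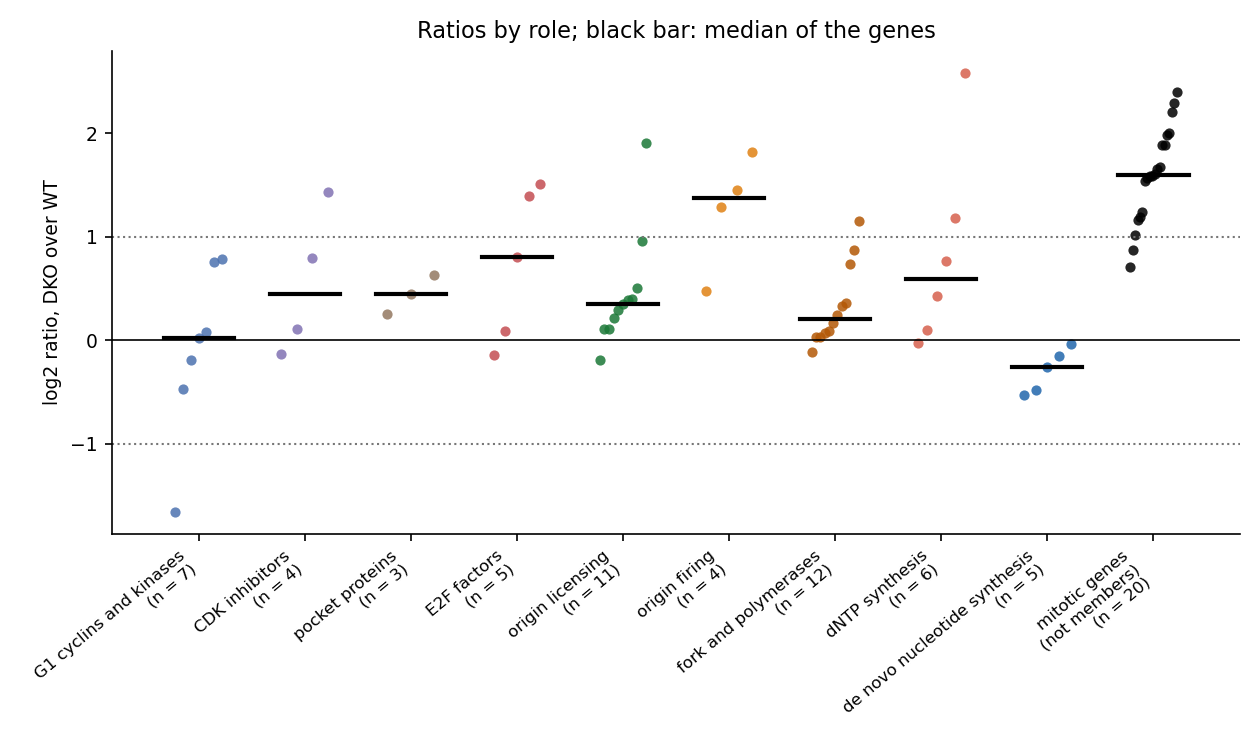
Log2 ratio of DKO over WT for each gene, by role, with the mitotic genes at the right; each point is a gene in 1 library per genotype, black bars are medians, dotted lines mark 2-fold, and Gmnn and Uhrf1, alone in their roles, are not drawn. Medians run from -0.26 for de novo nucleotide synthesis through 0.21 for the fork and 0.35 for licensing to 1.37 for origin firing, beside 1.60 for mitotic genes.

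In the GRCm38 annotation 25 of the 59 genes share exon bases with a gene on the other strand, and the strand setting of the counting is not given, so reads of such neighbours cannot be told apart.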

How the data were processed

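Total RNA of CD8+ regulatory T cells sorted from mouse spleen was sequenced in 1 WT and 1 DKO library as single-end reads of 50 bases, per the labels' protocols. The authors deposited raw whole-number counts of reads per gene symbol. Per the submitters' processing notes, which give no roles or order, the tools were HTSeq, TopHat2 2.0.8b and bcl2fastq, and the build was mm9. For annotation, filters and strandedness, details were not given in the sources used here. Each file ends with 5 rows that name no gene; these held 71.5% of the WT total and 69.5% of the DKO total, mostly non-unique alignments (66.4% and 64.8%), and were left out.

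Gene counts summed to 22307065 (WT) and 19661212 (DKO). They were scaled by TMM factors (edgeR 4.0.16, R 4.3.3) and given as CPM, counts per 1000000. Ratios are DKO over WT with a prior count of 0.5. For each gene, the share of its reads found in DKO was given an exact 95% interval (Clopper-Pearson, scipy 1.17.1), converted to the ratio's scale. These intervals cover counting error only, since the reads carried no molecular identifiers and need not be separate molecules. With 1 library per genotype no p-value was computed. A gene is called measured from 1 CPM upwards in one of the libraries or both.

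The members and gene lists were chosen with earlier results of these data known. Named besides the members are Tgfbr2, Eomes, Mki67 and, per other list, up to 4 genes of at least 5 CPM with the largest absolute log2 ratio. Outside this rule, the pairs of members, the purine pathway to IMP, Myc, Cdkn1c and Cdkn2a were chosen after their values were seen; marker and overlapping genes are named only where a count needs them. Levels per kilobase use the summed exon length of each gene in GENCODE M21 (GRCm38), which may differ from the models counted. Alternatives were scaling by total counts, by DESeq2 1.42.0 size factors or by 24 T cell receptor genes, no minimum or 5 CPM, limits of 1.5-fold and 4-fold, and a prior count of 5.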

Additional observations from a re-analysis of the deposited data

How the results depend on the processing

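Scaling by T cell receptor genes raised the median log2 ratio of all genes to 0.21, and with it the medians of all members to 0.49, of licensing genes to 0.55 and of S phase genes to 0.59 (a scaling moves every ratio alike). Licensing minus S phase was -0.07 with a 5 CPM minimum, which leaves out Orc1, against -0.04. Under this scale 14 members were at least 2-fold higher, beside 14.5% of all genes, and 8 members changed sign (Cdk4, Cdkn1b, E2f4, Orc2, Rpa1, Dut, Impdh2 and Paics), none of them past 2-fold; the other 51 kept their sign under each scaling and prior count tried. With total counts 12 members were higher (12.2% of all genes), with DESeq2 size factors 11 (11.5%), with a 5 CPM minimum 10 of 58 (7.42%) and with a prior count of 5 10 of 59 (11.0%). At a 1.5-fold limit 20 were higher (17.7%). At 4-fold 1 was higher and 0 lower, beside 4.39% and 1.18% of all genes, so there the members did not exceed the share of all genes. Of 236 values of single members under other scalings or the prior count, 199 stayed within their counting interval. Depth limits the least abundant: Orc1, with 26 WT counts, had an interval from 2.43 to 6.12. No paired analysis was possible because each genotype has 1 library.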

Other observations

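Among the other G1/S regulators, 2 inhibitor genes of low level had larger ratios than any of the 59 members, and were singled out after their values were seen. Cdkn1c, encoding p57, had 6 counts in WT and 50 in DKO, 8.52-fold higher (3.92 to 26.1). Cdkn2a, encoding p16 and p19ARF, had 4 and 30, 7.44-fold higher (2.90 to 32.1). By the higher of the 2 levels both lie between 1 and 5 CPM, where Orc1 is the lone member. In that range 35.0% of all genes measured were at least 2-fold higher, and their median log2 ratio was 0.46.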
